A study of Homo sapiens with 12 samples.

Results

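OVCAR-3 cells with OCT4 silenced were compared with OVCAR-3 cells that received control siRNA. OVCAR-3 is an established human line of high-grade serous ovarian carcinoma. The comparison took 6 of the 12 arrays of the series, 3 transfected with Oct4 siRNA (siOct4) and 3 with control siRNA (control), chosen by their labels. The other 6 arrays, with Rb1 siRNA (siRb1) or with Ccnf siRNA together with Nipp1 siRNA (siCcnf+siNipp1), entered the statistical fit and serve below to show where siOct4 differed from other knockdowns. All cells grew in serum- and insulin-supplemented RPMI medium, received their siRNA with Lipofectamine RNAiMAX, and gave RNA at 72 hours. The sources used here give neither the sequences nor the number of siRNAs, so an effect of the siRNA apart from its target cannot be told apart from silencing. Replicates are called biological in the labels without mention of separate cultures, so the p-values rest on variation among arrays, some of which may be technical. In RNA from a whole culture, fewer cells of a kind and less RNA per cell cannot be told apart.

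The POU5F1 product OCT4 binds an octamer DNA element as a transcription factor and holds embryonic stem cells in the pluripotent state together with partners such as SOX2 and NANOG. It is silent in most differentiated tissues and is found in some tumours. The study's title ties OCT4 in this cancer to the mitotic spindle and the RB pathway. The account here is of other functions. Genes on lists of mitosis, of E2F and replication, and of the interferon response are therefore left out of the gene groups described. Of these, 257 were measured and 211 changed, where 33.4% of all measured genes changed.

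Expression was read on Illumina HT-12 bead arrays, on which each probe has a fluorescence signal and a detection p-value. Values below are log2 values after background correction and quantile normalization, so a difference of 1 is 2-fold. Among the 6 arrays, 16613 to 17351 probes were detected at a detection p-value under 0.01. Across genes, arrays of the same group correlated at 0.98 to 0.989 (6 pairs) and arrays of different groups at 0.944 to 0.966 (9 pairs). Of 15 markers of serous carcinoma, 10 were detected on all control and all siOct4 arrays, among them PAX8, MSLN, FOLR1 and SOX17, while WT1, EMX2 and BCAM were detected on none of the 6. All 7 epithelial markers were detected on all control arrays.

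The targeted transcript was lost to the detection limit. The POU5F1 probe paired with NM_002701 had signals of 1938.2, 1625.3 and 1786.2 on the control arrays and 223.5, 157.3 and 154.9 on the siOct4 arrays, where its detection p-values were 0.056, 0.616 and 0.773. It was thus undetected on 3 of 3 siOct4 arrays. After normalization it was at least 15.9-fold lower (fitted log2 difference -5.27 ± 0.21, SE; limma adjusted p = 1.16e-07). A bound of this kind sets the mean of the brighter group against the lowest signals detected on the dim group's arrays, or the probe's own where larger. An exact permutation test of this single probe gave p = 0.1, the smallest value that 3 arrays against 3 can give. A dimmer probe paired with the transcript NM_203289 read 7.73, 7.0 and 7.17 in control and 7.51, 7.84 and 7.37 with siOct4 (exact permutation p = 0.4), so the groups overlapped there. The fall was therefore seen by 1 of the 2 POU5F1 probes. Without background correction the fitted fall was smaller, -3.31.

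Other genes of the pluripotency network moved in both directions. LIN28A, an RNA-binding protein of stem cells, read 7.76, 7.78 and 7.99 in control and was detected on 0 siOct4 arrays, a fall of at least 2.38-fold (adjusted p = 1.74e-05). LIN28A was also low in the other knockdowns, averaging 5.63 with siRb1 and 6.36 with siCcnf+siNipp1, against 7.84 in control. POU5F1 averaged 11.38 and 11.61 in those knockdowns, against 10.58 in control. DNMT3B, a de novo DNA methyltransferase abundant in stem cells, fell by 1.29 ± 0.16 (SE; adjusted p = 0.000191). DNMT3B averaged 11.63 with siRb1 and 12.24 with siCcnf+siNipp1, against 11.76 in control. SOX2, a partner of OCT4, was undetected on the control arrays and at least 1.81-fold higher with siOct4 (adjusted p = 0.00377). Of 23 genes on this list 6 were measured, 1 rose and 3 fell, POU5F1 itself included.

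Over all genes the response was wide and nearly even in direction. Of 17304 probes kept, 5435 (31.4%) differed between siOct4 and control at an adjusted p under 0.05. Read by gene, 3474 of 10404 measured genes changed (33.4%), 1774 higher (17.1%) and 1700 lower (16.3%). These shares are the background for the counts of group members in the main fit below. A count named with another setting has another background. With a replicate block 2309 genes were higher and 2215 lower, and with only the 6 arrays in the fit 1499 and 1364. The median log2 difference over all genes was -0.0124. Changes of 2-fold or more were fitted for 473 genes that rose and 432 that fell, and changes of 4-fold or more for 74 and 33. In 47.1% of measured genes the 3 siOct4 arrays lay wholly above or wholly below the 3 control arrays.

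**Figure D1:**
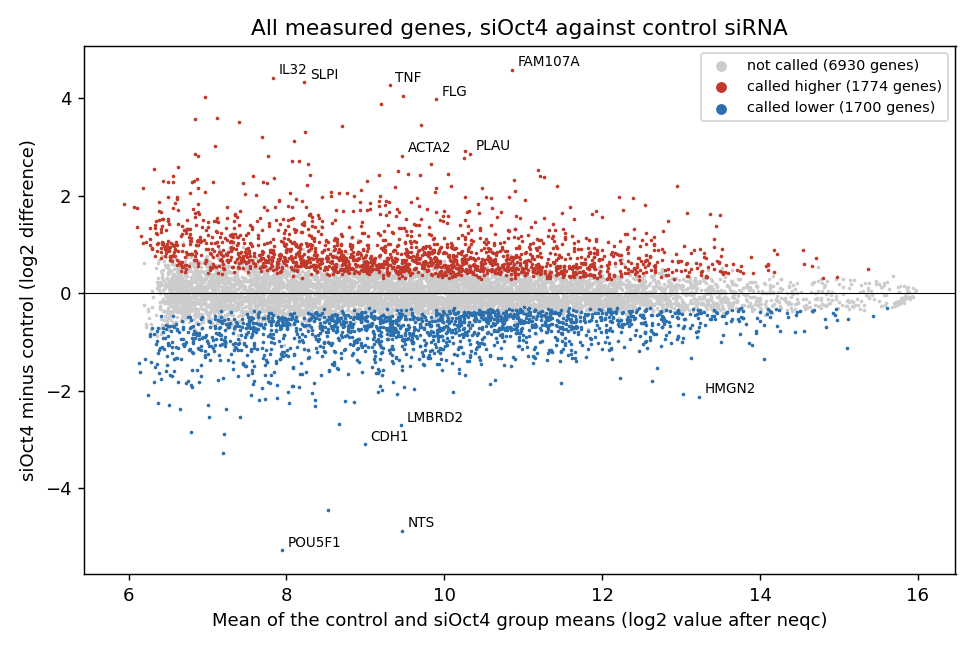
Each point is a measured gene, with its mean level on the x axis (log2) and the siOct4 minus control difference on the y axis (log2). The 1774 genes called higher and 1700 called lower lie on both sides of 0 at every level, and POU5F1, undetected on the siOct4 arrays, is plotted at its fitted difference of -5.27.

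Among genes detected on all 6 arrays and outside the left-out lists, the 15 largest rises held cytokines, barrier proteins, an actin-bundling protein and class I HLA genes. FAM107A, an actin-associated stress protein, read 10.11, 8.07 and 7.54 in control and 13.64, 13.09 and 12.71 with siOct4, a difference of 4.58 ± 0.91 (SE; adjusted p = 0.00287). Its control arrays differed by more than 2 log2 units. The groups do not overlap in any gene of this set, since that was a condition for entry. TNF, the cytokine tumour necrosis factor, read 7.66, 6.58 and 7.30 in control and 11.12, 11.77 and 11.43 with siOct4 (4.26 ± 0.26, SE; adjusted p = 1.95e-06). SGPP2, a sphingosine-1-phosphate phosphatase, read 8.08, 7.19 and 7.10 against 11.09, 11.83 and 11.61 (4.05 ± 0.25, SE; adjusted p = 1.95e-06). FLG, the gene of filaggrin in the skin barrier, read 8.01, 7.85 and 7.86 against 11.51, 12.03 and 12.11, with a standard deviation of only 0.094 in control (3.98 ± 0.19, SE; adjusted p = 3.09e-07). PI3, the elastase inhibitor elafin, differed more among the siOct4 arrays, which read 9.76, 12.08 and 11.58 against 7.51, 6.82 and 7.44 in control (3.88 ± 0.50, SE; adjusted p = 0.000207).

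The other rises in this set ran from 3.44 down to 2.50. LCP1, the actin bundler plastin-2 known from leukocytes and some carcinomas, read 8.16, 8.0 and 7.81 in control and 10.92, 11.88 and 11.49 with siOct4. EBI3, a subunit shared by the cytokines IL-27 and IL-35, read 7.61, 6.64 and 6.74 against 10.16, 10.77 and 10.33. PLAU, the urokinase plasminogen activator, read 8.81, 9.06 and 8.83 against 11.58, 11.76 and 11.93. Among the siOct4 arrays of LCP1, replicate 1 was the lowest. ACTA2 (smooth muscle actin, +2.81), DDIT4L (an inhibitor of mTOR signalling, +2.77), FGFBP1 (a carrier of fibroblast growth factors, +2.64), CPA4 (a carboxypeptidase, +2.52) and the class I genes HLA-B (+2.92) and HLA-F (+2.50) also belonged here, with adjusted p from 3.5e-06 to 0.000134.

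Among genes detected on all 6 arrays and outside the left-out lists, the largest fall was in the gene of E-cadherin. CDH1, the adhesion molecule of epithelial junctions, read 10.37, 10.64 and 10.61 in control and 7.31, 7.47 and 7.55 with siOct4, a difference of -3.09 ± 0.24 (SE; adjusted p = 8.88e-06). LMBRD2, a membrane protein, read 11.001, 10.71 and 10.71 against 8.54, 8.05 and 7.71 (-2.71 ± 0.22, SE; adjusted p = 1.46e-05). LPAR3, a receptor for lysophosphatidic acid, read 9.73, 9.41 and 9.41 against 7.55, 7.30 and 6.79 (-2.31 ± 0.36, SE; adjusted p = 0.000642). In LMBRD2 and LPAR3 siOct4 replicate 1 was the highest of the siOct4 arrays, and in CDH1 it was the lowest. NUDT1, which clears oxidized nucleotides, fell by 2.23, SLC7A8, a neutral amino acid transporter, fell by 2.19, and IPO5, a nuclear import receptor, fell by 2.03. MRPL9, a protein of the mitochondrial ribosome, read 10.59, 10.19 and 10.51 against 8.58, 8.38 and 8.13 (-2.07 ± 0.15, SE; adjusted p = 7.41e-06). GPC4, a cell-surface heparan sulfate proteoglycan, fell by 1.93 and HSPB3, a small heat shock protein, fell by 2.03. TOM1L2, TMEM158, HMGN2, TRMT5, DCAF12L1 and CRYBG2 completed the set, with falls of 2.02 to 2.22.

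**Figure D2:**
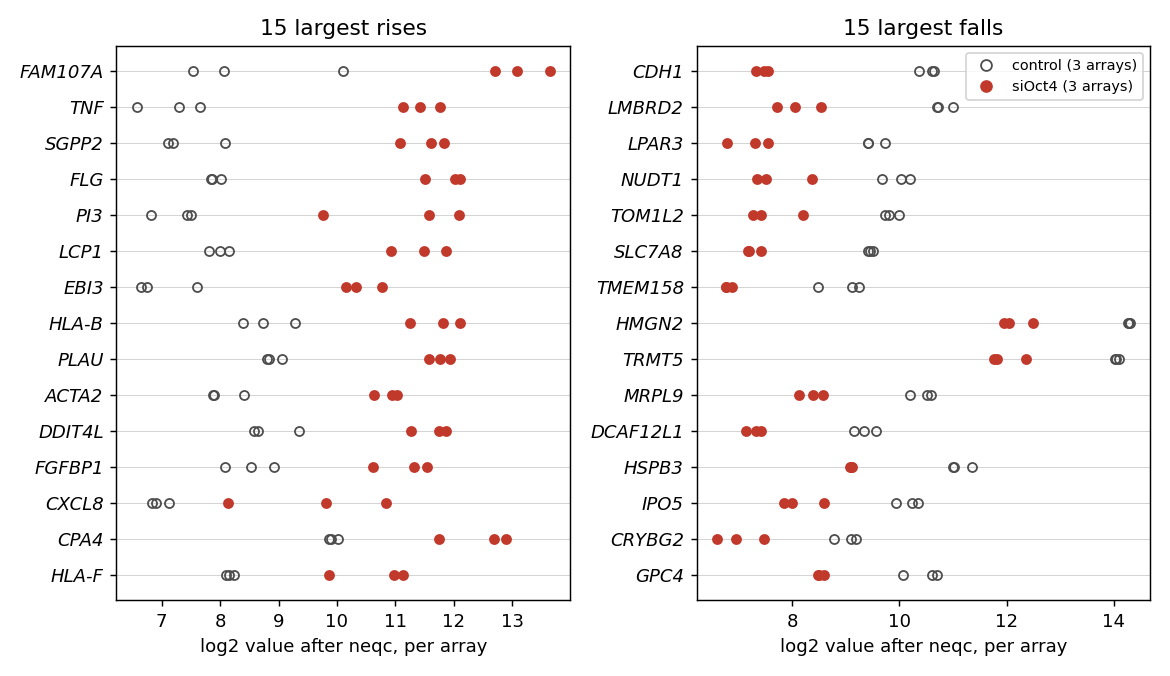
Log2 values on each of the 3 control arrays (open circles) and 3 siOct4 arrays (filled circles) for the 15 largest rises and 15 largest falls among genes detected on all 6 arrays. In every row the groups do not overlap, which was a condition for entry, and the control arrays of FAM107A spread from 7.54 to 10.11.

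Some genes crossed the detection limit. Of the genes called, 111 were undetected on every control array and 78 on every siOct4 array. Such a gene passed the detection filter only because all 3 arrays of the other group detected it. Its adjusted p, here and in other paragraphs, is thus no separate support for a difference. How many of all measured genes were undetected in a whole group is not given here. IL32, an inflammatory cytokine, was undetected in control and read 9.06, 10.88 and 10.17 with siOct4, at least 11.4-fold higher (adjusted p = 2.37e-05). PDK4, a kinase that restrains pyruvate dehydrogenase, read 8.58, 9.41 and 9.45 with siOct4, at least 6.17-fold higher (adjusted p = 5.87e-06). The bounds for RPS6KA2 (a ribosomal S6 kinase), HBE1 (embryonic epsilon globin), PPP1R1A (a protein phosphatase 1 inhibitor), CEACAM1 (an adhesion molecule), SAA1 (an acute-phase protein) and SRPX were 6.28, 5.46, 5.26, 4.31, 4.24 and 4.16-fold. HBE1 read 7.19 on siOct4 replicate 1 and 9.68 and 10.04 on replicates 2 and 3, so its size differed between arrays. In the other direction PLEKHH2 read 8.90, 8.57 and 9.03 in control and was undetected with siOct4, at least 4.74-fold lower (adjusted p = 4.26e-07). PIM1, a survival kinase, was at least 4.26-fold lower, KRT25, a keratin known from hair follicles, 4.18-fold, and SLC8A1, a sodium-calcium exchanger, 4.02-fold. LYPD6B, CA5B and GUCA1C were lower by at least 3.56, 3.23 and 2.95-fold.

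The shift from control differed between the 3 siOct4 arrays. Over 765 called genes that changed 2-fold or more outside the left-out lists, the median shift from the control mean, in the direction of the change, was 1.16 on siOct4 replicate 1, 1.46 on replicate 2 and 1.4 on replicate 3. Replicate 1 was the siOct4 array nearest to control for 459 of these genes (60%), against 115 for replicate 2 and 191 for replicate 3. Rises and falls gave alike shares, 59.6% and 60.5%. Taken from the control array of the same number, the median shifts were 1.13, 1.45 and 1.45, and replicate 1 had the smallest shift for 512 genes (66.9%). Replicate 1 also had the highest POU5F1 signal of the 3, 223.5, which lay below detection. The part of that residual signal in the smaller shift was not tested. Leaving out siOct4 replicate 1 gave 5349 called probes, and leaving out replicate 2 or 3 gave 4157 or 4425.

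**Figure D3:**
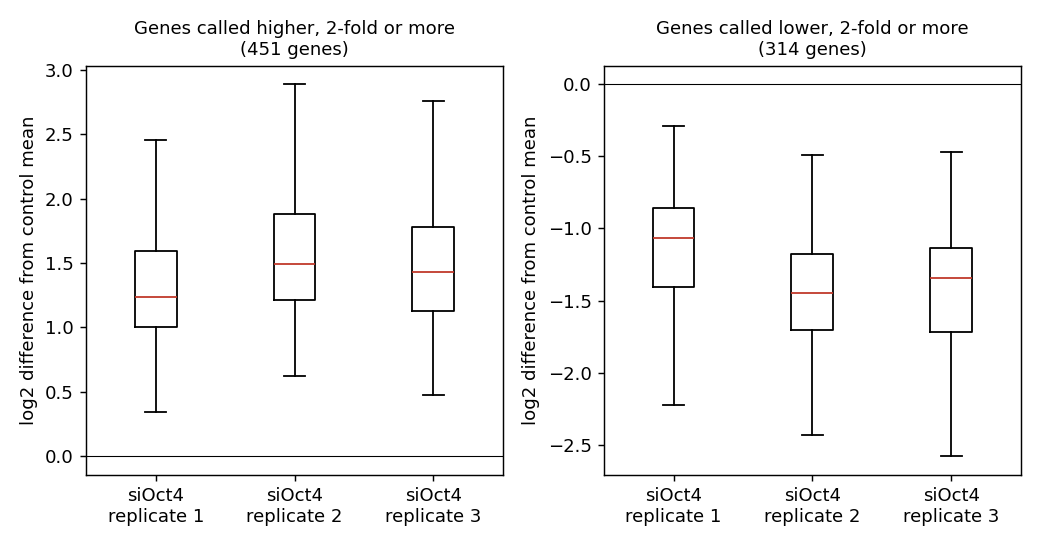
Difference from the control mean (log2) on each siOct4 array, for 451 genes called higher and 314 called lower by 2-fold or more outside the left-out lists. Lines in the boxes are medians, boxes are quartiles, whiskers reach to 1.5 times the box height and points beyond are not drawn. Replicate 1 has the smallest median shift in both panels, 1.23 for rises and 1.07 for falls.

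Gene groups were then read one by one, as counts beside the background shares. Shares of rises were high in lists of antigen presentation, NF-kB signalling, death receptors, ATF4 targets, integrins and barrier proteins, and shares of falls were high in lists of the proteasome, RNA-binding proteins, nuclear pore and heat shock. The next paragraphs give the members.

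**Figure D4:**
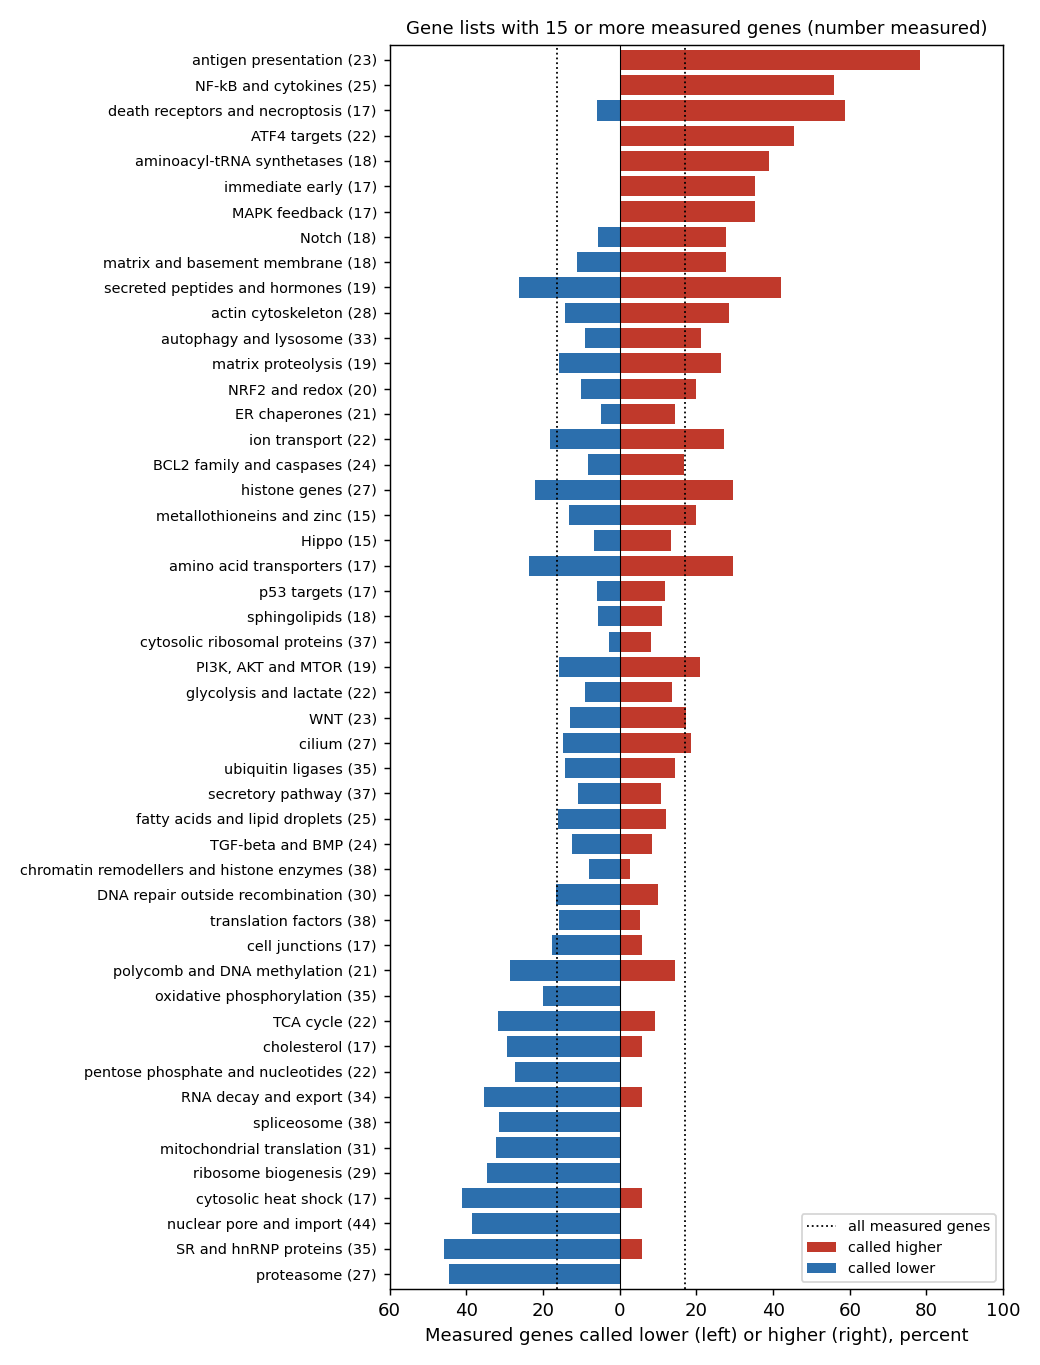
Percent of measured members called higher (right) and lower (left) with siOct4, for every list with 15 or more measured genes, the number measured in brackets. Dotted lines mark the shares among all measured genes, 17.1% higher and 16.3% lower. Antigen presentation reaches 78.3% higher, and SR and hnRNP proteins reach 45.7% lower.

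NF-kB is a family of dimeric transcription factors held in the cytoplasm by inhibitors such as NFKBIA, and released on signals such as TNF to switch on cytokines and its own inhibitors. Several of the largest rises are known NF-kB targets in textbook accounts. The promoters of SGPP2, IL32, EBI3 and CXCL8, each of which holds a match, are shown with the core motif GGNNTTTCC in capitals, searched on both strands. Those of other such genes, TNF among them, are not printed, so the printed set does not show how common the motif is. The sequences are from RefSeq (GRCh38.p14), the 250 bases before the annotated start, written along the gene. SGPP2 (chr2:222423738-222423987, plus strand) holds 3 matches, IL32 (chr16:3065153-3065402, plus strand) 2, and EBI3 (chr19:4229273-4229522, plus strand) and CXCL8 (chr4:73740319-73740568, plus strand) 1 each.
SGPP2: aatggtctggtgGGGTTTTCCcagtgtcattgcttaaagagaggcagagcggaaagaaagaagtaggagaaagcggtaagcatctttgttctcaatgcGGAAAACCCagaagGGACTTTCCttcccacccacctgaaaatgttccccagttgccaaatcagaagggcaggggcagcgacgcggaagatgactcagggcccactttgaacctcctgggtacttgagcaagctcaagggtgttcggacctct
IL32: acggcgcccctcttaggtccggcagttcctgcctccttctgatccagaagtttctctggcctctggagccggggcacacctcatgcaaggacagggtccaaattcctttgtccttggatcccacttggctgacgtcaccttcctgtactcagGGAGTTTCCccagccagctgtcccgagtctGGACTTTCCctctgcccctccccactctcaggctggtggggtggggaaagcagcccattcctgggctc
EBI3: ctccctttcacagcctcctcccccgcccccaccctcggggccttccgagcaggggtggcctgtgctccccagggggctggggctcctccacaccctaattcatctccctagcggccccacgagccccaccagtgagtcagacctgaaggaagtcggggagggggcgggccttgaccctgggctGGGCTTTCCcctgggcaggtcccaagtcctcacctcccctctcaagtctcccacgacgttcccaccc
CXCL8: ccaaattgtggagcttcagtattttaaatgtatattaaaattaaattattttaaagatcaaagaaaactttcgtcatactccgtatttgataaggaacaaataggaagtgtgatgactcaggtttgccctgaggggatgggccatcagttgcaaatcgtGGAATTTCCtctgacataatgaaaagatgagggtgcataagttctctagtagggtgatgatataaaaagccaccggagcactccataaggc
The motif stood in 6.26% of all 27305 RefSeq promoter windows, which reach 50 bases past the start, and in 6.94% of the 8420 windows of measured genes. It stood in 8.31% of windows of genes that rose, in 10.6% of those that rose 2-fold or more (38 of 360), in 6.22% of those that fell and in 4.07% of those that fell 2-fold or more (14 of 344). In the NF-kB list it stood in 10 of 19 measured genes with a window (52.6%) and in 5 of the 10 that rose (50.0%), so its share was no higher among the rises of the list. The octamer ATGCAAAT, on either strand and in the same windows, stood in 1.32% of measured genes, 1.75% of those that rose and 0.795% of those that fell. A match describes the letters of these windows and is not evidence of binding.

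Of the NF-kB and cytokine list, 14 of 25 measured genes rose and 0 fell, with a median log2 difference of 0.83 against -0.0124 over all genes. Among the cytokines, CXCL8, the neutrophil attractant interleukin-8, read 7.13, 6.90 and 6.84 in control and 8.14, 10.84 and 9.81 with siOct4 (2.64 ± 0.53, SE; adjusted p = 0.00304). IL23A, a subunit of interleukin-23, was undetected in control and at least 2.63-fold higher with siOct4 (adjusted p = 0.00136). IL6 read 7.54, 7.69 and 8.03 in control and 7.53, 10.24 and 9.65 with siOct4, and did not pass (1.39 ± 0.53, SE; adjusted p = 0.0666, and 0.018 with a replicate block). Without siOct4 replicate 1 the IL6 difference was 2.2 (adjusted p = 0.000368). For CXCL8, IL23A and IL6 alike, siOct4 replicate 1 was the lowest of the siOct4 arrays. The negative regulators rose too: TNFAIP3, a ubiquitin-editing inhibitor of the pathway, by 2.42 ± 0.26 (SE; adjusted p = 7.49e-05), and NFKBIA by 1.82 ± 0.20 (SE; adjusted p = 7.4e-05), with control values of 11.96, 11.51 and 11.42 and siOct4 values of 13.29, 13.84 and 13.22. Of the transcription factor subunits, RELB rose by 2.28, NFKB2 by 0.86 and NFKB1 by 0.85, RELB being detected on 2 of 3 control arrays. CXCL16, a membrane-bound chemokine, rose by 1.82.

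Genes of death receptor signalling, which links TNF-type ligands to apoptosis or necroptosis, rose in 10 of 17 measured cases, and 1 fell. MLKL, the executioner of necroptosis, read 9.94, 9.31 and 9.10 in control and 11.23, 11.22 and 10.91 with siOct4 (1.67 ± 0.20, SE; adjusted p = 0.00012). The TRAIL receptor genes TNFRSF10B and TNFRSF10A rose by 0.98 and 0.74, and TRADD, an adaptor of the TNF receptor, by 0.78. FAS was undetected in control and at least 1.34-fold higher. The count of rises was 6 without control replicate 3 and 6 with only the 6 arrays in the fit. In the list of BCL2 family and caspases, 4 of 24 rose and 2 fell, a share of rises near that of all genes. The rises numbered 7 without siOct4 replicate 1, with a replicate block, without background correction, with detection required on all 6 arrays or with adjustment over genes. Its largest changes were CASP4, an inflammatory caspase (1.68 ± 0.16, SE; adjusted p = 2.84e-05), and PMAIP1, the pro-apoptotic protein NOXA (1.59 ± 0.31, SE; adjusted p = 0.00225). Of 17 measured p53 target genes 2 rose and 1 fell, with CDKN1A higher by 0.56, and with a replicate block 5 rose and 2 fell. The falls were also 2 without siOct4 replicate 2.

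Antigen presentation genes rose in 18 of 23 measured cases and fell in 0, with a median of 1.28. These genes load peptides on HLA molecules at the cell surface, and many are also known targets of interferon and NF-kB. TAP1, a subunit of the peptide transporter, read 9.16, 8.71 and 8.62 in control and 10.93, 11.66 and 11.21 with siOct4 (2.44 ± 0.21, SE; adjusted p = 1.54e-05), and TAP2 rose by 2.01 with detection on 2 of 3 control arrays. TAPBP, the loading factor tapasin, rose by 2.16, and B2M, the light chain of class I molecules, by 1.61, from 12.68, 12.29 and 12.70 to 13.79, 14.29 and 14.43. PSMB9, a subunit of the immunoproteasome, was undetected in control and at least 2.1-fold higher. HLA-C and HLA-E rose by 1.18 and 1.02, less than HLA-B. MR1, which presents microbial metabolites, rose by 2.21, and HLA-DMA, which acts in class II loading, by 2.07. Class I genes are close in sequence, and hybridization of a probe to a related transcript was not tested.

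**Figure D5:**
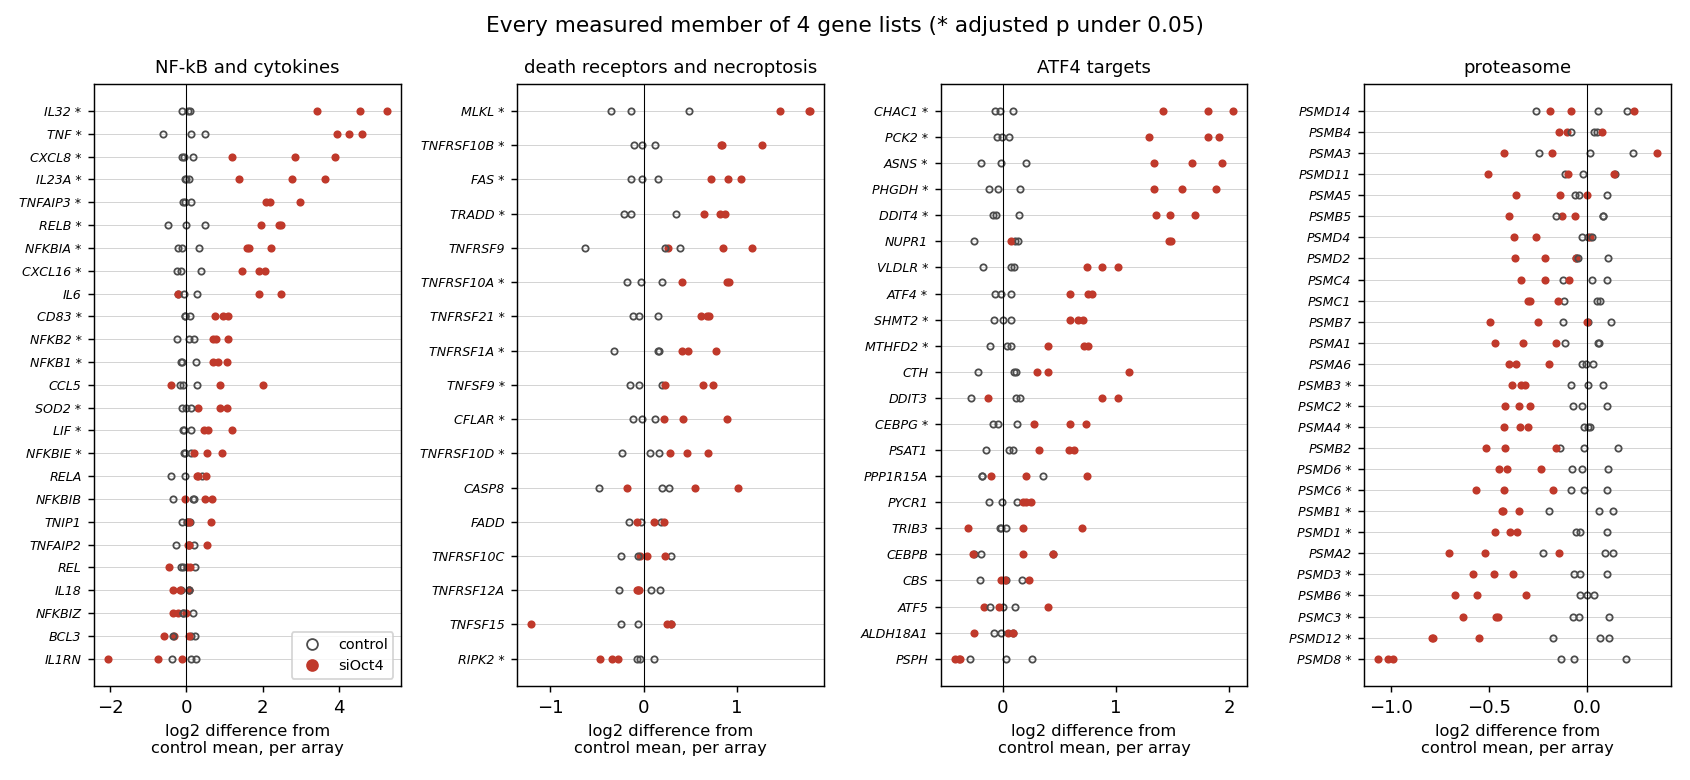
Log2 difference of each array from the control mean for every measured gene of 4 lists, with control arrays as open and siOct4 arrays as filled circles, and an asterisk for an adjusted p under 0.05. IL32, which was undetected in control, and TNF stand high above control, while the fitted proteasome differences run from -1.02 to -0.01.

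Genes of surface barriers and of the contact with matrix rose in part. Of 10 measured barrier and protease inhibitor genes 5 rose and 0 fell: FLG, PI3, SLPI, SERPINB8 and CNFN. CNFN lost its call without siOct4 replicate 1 (adjusted p = 0.0624) or control replicate 3 (adjusted p = 0.0603). SLPI, a secreted leukocyte protease inhibitor, read 5.58, 6.05 and 6.57 in control, with detection on 1 array, and 8.92, 11.19 and 11.07 with siOct4 (4.32 ± 0.51, SE; adjusted p = 0.000125). Integrins, the receptors for matrix, rose in 5 of 10 measured cases and fell in 0. ITGA3, the alpha chain of a laminin receptor, read 9.33, 9.67 and 9.19 against 11.64, 11.49 and 11.51 (2.15 ± 0.18, SE; adjusted p = 1.4e-05). ITGB3, detected on 2 of 3 control arrays, rose by 1.29, ITGA2 by 0.94, ITGAV by 0.93 and ITGB2 by 0.93. In the basement membrane list the laminin genes moved apart, LAMB3 and LAMB2 rising by 1.42 and 1.06 and LAMC1 falling by 1.0, and COL4A1 fell by 0.96. In the matrix proteolysis list 5 of 19 rose and 3 fell, and 9 rose with a replicate block and 3 without control replicate 3. Beside PLAU, its relative PLAT, the tissue plasminogen activator, went the other way, detected on all control arrays and on 0 with siOct4, a fall of at least 1.71-fold (adjusted p = 0.000306). The metalloproteinase inhibitors also parted, TIMP1 rising by 0.81 and TIMP2 falling by 1.25.

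Junction, epithelial and cytoskeletal genes gave mixed directions. Beside CDH1, the junction list of 17 measured genes held 2 other falls, DSC2 and EPCAM, and 1 rise, CLDN1, a tight junction protein (1.10 ± 0.16, SE; adjusted p = 0.000448). With a replicate block 6 junction genes fell. EPCAM, an epithelial adhesion molecule, fell by 0.78 (adjusted p = 0.023). That call was lost without control replicate 1, 2 or 3, without siOct4 replicate 1 or 3 and without the detection filter, at adjusted p from 0.0518 to 0.0658. DSC2 lost its call without siOct4 replicate 2 (adjusted p = 0.0664). In the list of epithelial regulators 2 genes fell and 0 rose. They were FOXA1 and FOXA2, regulators of epithelial differentiation, lower by 0.72 and 1.12, while KLF5, EHF, OVOL2 and ELF3 did not pass. FOXA2 was detected on 2 of 3 siOct4 arrays. Of the keratins 2 rose, KRT7 and KRT15 by 1.53 and 1.40, and 2 fell, KRT25 and KRT8. KRT15 was detected on 2 of 3 control arrays. KRT10, KRT13, KRT18, KRT19 and KRT80 did not pass, with KRT18 and KRT19 at fitted differences of 0.15 and 0.19. KRT8 was read by 1 dim probe that was detected on 3 control arrays and 0 with siOct4, a fall of at least 2.09-fold (adjusted p = 0.00015). Of 28 measured genes of the cytoskeleton list, chiefly of actin, 8 rose and 4 fell, with 2 falls without control replicate 1 or siOct4 replicate 3. MYL9 and TAGLN, contractile proteins that accompany ACTA2 in smooth muscle, rose by 1.87 and 1.29. TPM2 and VIM (vimentin, an intermediate filament protein) rose by 0.94 and 0.59. FSCN1 (fascin) and CALD1 (caldesmon) fell by 0.84 and 0.81.

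Secreted peptides included one of the deepest falls. NTS, which encodes the peptide neurotensin, read 11.56, 11.86 and 12.30 in control and 7.49, 5.96 and 7.66 with siOct4, detected on 2 of the 3 siOct4 arrays (-4.87 ± 0.39, SE; adjusted p = 1.21e-05). NMU, neuromedin U, read 13.61, 13.40 and 13.59 against 12.07, 11.48 and 11.66 (-1.80 ± 0.19, SE; adjusted p = 7.14e-05), and GAL, galanin, fell by 1.34. In these 3 neuropeptide genes no siOct4 array reached a control array, but the groups also did not overlap in 47.1% of all measured genes. Rises were seen in STC1 and STC2, the stanniocalcins (1.98 and 1.99), CALCB, a calcitonin gene-related peptide (2.26, detected on 2 of 3 control arrays), and VGF, a neuroendocrine precursor (1.90). In all, 8 of 19 measured genes of the list rose and 5 fell. The rises numbered 4 without siOct4 replicate 2, without control replicate 3 or without the detection filter, and the falls 3 with detection required on all 6 arrays.

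ATF4 is a transcription factor that is translated when cells sense amino acid or other stress, and that induces genes of amino acid synthesis, transport and tRNA charging. Its known targets CHAC1 (chr15:40953221-40953470, plus strand) and ASNS (chr7:97872409-97872658, minus strand) each hold 1 match to the core motif TGATGNAAN, in capitals in the 250 bases before their starts (RefSeq, GRCh38.p14), which stood in 1.65% of windows of measured genes, 2.37% of those that rose and 1.59% of those that fell. They were the only matches among the 18 measured genes of the ATF4 list with a window, of which 9 rose.
CHAC1: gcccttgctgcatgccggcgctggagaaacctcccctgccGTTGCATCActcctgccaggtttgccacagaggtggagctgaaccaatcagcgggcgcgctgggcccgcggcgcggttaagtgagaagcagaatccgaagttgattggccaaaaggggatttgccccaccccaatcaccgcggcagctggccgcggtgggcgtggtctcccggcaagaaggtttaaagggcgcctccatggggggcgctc
ASNS: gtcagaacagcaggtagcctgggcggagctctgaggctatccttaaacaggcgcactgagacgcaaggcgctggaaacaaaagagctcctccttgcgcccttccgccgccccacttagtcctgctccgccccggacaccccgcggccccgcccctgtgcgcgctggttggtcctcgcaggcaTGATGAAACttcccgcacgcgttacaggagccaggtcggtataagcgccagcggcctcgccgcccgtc
Of the ATF4 target list 10 of 22 measured genes rose and 0 fell, with a median of 0.60. ASNS, asparagine synthetase, read 12.23, 12.06 and 12.46 in control and 13.59, 14.18 and 13.92 with siOct4 (1.65 ± 0.34, SE; adjusted p = 0.00316). PHGDH, the entry enzyme of serine synthesis, read 12.58, 12.66 and 12.86 against 14.04, 14.58 and 14.28 (1.60 ± 0.31, SE; adjusted p = 0.00262). PCK2, mitochondrial phosphoenolpyruvate carboxykinase, rose by 1.67, DDIT4, an mTOR inhibitor, by 1.51, and ATF4 itself by 0.71. CHAC1, a glutathione-degrading enzyme, was undetected in control and at least 1.38-fold higher. VLDLR and SHMT2 rose by 0.88 and 0.65. The aminoacyl-tRNA synthetases, which charge tRNAs, rose in 7 of 18 measured cases and fell in 0, though with a median of 0.09. That count was 3 with median scaling, 4 without the detection filter and 4 without control replicate 1, siOct4 replicate 2 or siOct4 replicate 3. WARS1, the tryptophan enzyme, rose most, from 11.06, 11.09 and 11.03 to 12.32, 12.999 and 12.73 (1.62 ± 0.18, SE; adjusted p = 9.68e-05). Amino acid transporters split into 5 rises and 4 falls of 17, with SLC7A11, the cystine importer, up by 1.94 and SLC6A9, a glycine transporter, up by 1.48, against the fall of SLC7A8. The falls numbered 2 without control replicate 1.

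NQO1 and HMOX1, detoxifying enzymes known as NRF2 targets, rose by 2.19 and 2.41, NQO1 from 12.14, 11.71 and 11.68 to 13.87, 14.23 and 14.01 (adjusted p = 5.72e-06), while 4 of 20 genes of that list rose and 2 fell. The falls numbered 0 without control replicate 1 and 1 without control replicate 3, siOct4 replicate 2 or siOct4 replicate 3. ABCA1, the cholesterol exporter, rose by 2.06 and ABCB10, a mitochondrial transporter, fell by 1.39. Of 13 measured hypoxia genes 6 rose and 0 fell, with CA12, a carbonic anhydrase, at 10.99, 10.73 and 10.38 in control and 12.51, 12.59 and 12.32 with siOct4 (1.77 ± 0.18, SE; adjusted p = 5.35e-05). Of 25 measured genes of fatty acids and lipid droplets 3 rose and 4 fell. ACADVL, an enzyme of fatty acid oxidation, rose by 0.96. ACLY, which makes cytosolic acetyl-CoA, fell from 12.81, 12.85 and 12.80 to 11.75, 11.69 and 11.74 (-1.09 ± 0.10, SE; adjusted p = 3.16e-05), and ACSL4 fell by 1.32. In the list of retinoid genes and aldehyde dehydrogenases 5 genes rose and 2 fell. The other measured members, DHRS3, ALDH1B1, ALDH3A2, ALDH3B1, ALDH7A1 and ALDH9A1, did not pass. Among the called genes were rises of CRABP2, a retinoid-binding protein (1.23), and ALDH2, an aldehyde dehydrogenase (1.18), and a fall of ALDH1A1 (-0.77). ALDH1A2, also called higher, was undetected in control and at least 1.29-fold higher with siOct4. TCA cycle genes fell in 7 of 22 cases and rose in 2, with 4 falls without control replicate 2 or 3, and genes of the pentose phosphate pathway and nucleotides fell in 6 of 22 and rose in 0, with 3 rises under a replicate block. Of 35 measured oxidative phosphorylation genes 0 rose and 7 fell, by 0.31 to 0.72. That count ranged from 1 with only the 6 arrays in the fit to 11 with a replicate block or an intensity trend, and was 4, 3, 4 and 4 without control replicate 1, control replicate 2, control replicate 3 and siOct4 replicate 3.

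The proteasome, which degrades ubiquitin-tagged proteins, had 12 of 27 measured subunit genes lower and 0 higher, and every one of the 27 fitted differences was below 0, with a median of -0.34. PSMD8, a subunit of the regulatory cap, read 12.23, 11.97 and 11.90 in control and 11.05, 10.97 and 11.02 with siOct4 (-1.02 ± 0.12, SE; adjusted p = 0.000129), and PSMD12 fell by 0.71. Most differences were near the threshold: 5 falls passed without siOct4 replicate 2, without control replicate 3 or without the detection filter, and 6 without control replicate 2 or with only the 6 arrays in the fit. The immunoproteasome gene PSMB9 and the activator genes PSME1 and PSME2 rose, by 1.28 and 1.21 for the activators. Of 17 genes of the heat shock list, most of them cytosolic, 7 fell and 1 rose, and 4 fell without control replicate 2 or siOct4 replicate 3. STIP1, an HSP90 co-chaperone, fell by 0.72, DNAJB1 by 0.70 and HSPD1, a mitochondrial chaperonin, by 0.52.

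SR and hnRNP proteins, which bind pre-mRNA and guide splicing, fell in 16 of 35 measured cases and rose in 2, with a median of -0.36. SRSF10 read 9.85, 9.66 and 9.81 in control and 8.98, 8.93 and 9.01 with siOct4 (-0.80 ± 0.11, SE; adjusted p = 0.00038), TRA2B fell by 0.71 and HNRNPA2B1 by 0.63. The count of falls was 7, 10 and 9 without control replicate 1, 2 and 3, 6 and 8 without siOct4 replicate 2 and 3, 8 without the detection filter and 7 with only the 6 arrays in the fit. Of 38 core spliceosome genes 12 fell and 0 rose, and 19 fell with a replicate block. PRPF38A, LSM4 and SF3A3 fell by 0.81, 0.81 and 0.76. Genes of RNA decay and export fell in 12 of 34 cases and rose in 2, with DCP2, which removes the mRNA cap, lower by 1.15 ± 0.20 (SE; adjusted p = 0.00134).

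Of 44 measured genes of the nuclear pore and import 17 fell and 0 rose, with a median of -0.35. IPO5 read 9.94, 10.35 and 10.24 in control and 8.59, 8.0 and 7.85 with siOct4 (-2.03 ± 0.19, SE; adjusted p = 2.84e-05). CSE1L, which returns importin alpha to the cytoplasm, fell by 0.93, and the pore genes NUP50 and NUP88 by 0.86 and 0.69. The count was 11 without control replicate 1 or siOct4 replicate 2, 10 without control replicate 3, 11 with only the 6 arrays in the fit and 9 without the detection filter. Ribosome biogenesis genes fell in 10 of 29 cases and rose in 0, among them RRP9, a component of small nucleolar particles (-1.34 ± 0.16, SE; adjusted p = 0.00015), and POLR1E, a subunit of RNA polymerase I (-1.0 ± 0.15, SE; adjusted p = 0.000543). Mitochondrial translation genes fell in 10 of 31 cases and rose in 0, with 6 falls without control replicate 2 or 3, without siOct4 replicate 2 or 3, without the detection filter or with only the 6 arrays. Beside MRPL9, MRPL48 fell by 1.16 and MRPL13 by 0.74. Of 37 measured cytosolic ribosomal protein genes 3 rose and 1 fell, RPS7 from 11.65, 11.96 and 12.16 to 10.79, 10.48 and 10.82 (-1.23 ± 0.17, SE; adjusted p = 0.000269). With a replicate block 6 rose and 3 fell.

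Among 38 measured chromatin remodellers and histone enzymes 3 fell and 1 rose, and with a replicate block 7 fell and 2 rose. The rises were also 2 without siOct4 replicate 2 or control replicate 3. SMARCE1, a subunit of the SWI/SNF remodeller, fell by 0.96 and KMT2A, a histone methyltransferase, rose by 0.73. TET1, which oxidizes methylated cytosine, read 8.92, 8.32 and 7.82 in control and 7.61, 6.36 and 6.05 with siOct4, detected on 1 of the 3 siOct4 arrays (-1.68 ± 0.40, SE; adjusted p = 0.0074). CBX2, a polycomb protein, fell by 1.36. Histone genes split into 8 rises and 6 falls of 27 measured. H2BC5 read 10.51, 10.05 and 10.41 in control and 11.92, 12.86 and 12.80 with siOct4 (2.20 ± 0.25, SE; adjusted p = 9.6e-05), and H4C8, H2AC6 and H2BC21 rose by 2.0, 1.96 and 1.34. H4C3 fell by 1.12, and the variant gene H2AZ1 by 0.69. Histone genes of a class are near-identical, and hybridization of a probe to a related gene was not tested.

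Signalling genes gave a few large single changes. Feedback genes of the MAPK pathway rose in 6 of 17 cases and fell in 0, with DUSP6, a phosphatase of ERK, at 10.26, 10.58 and 10.46 in control and 11.75, 11.67 and 11.92 with siOct4 (1.35 ± 0.15, SE; adjusted p = 7.88e-05) and SPRY2, an inhibitor of receptor signalling, higher by 1.02. TGFBR2, a receptor for TGF-beta, rose from 10.52, 9.84 and 10.20 to 11.72, 11.80 and 11.65 (1.54 ± 0.18, SE; adjusted p = 0.00013), while ID1, a target of BMP signalling, fell by 0.80. AXIN2, a feedback target of WNT signalling, read 8.65, 8.98 and 8.78 in control and 7.03, 6.73 and 6.16 with siOct4, detected on 2 of 3 siOct4 arrays (-2.16 ± 0.28, SE; adjusted p = 0.000221). In the WNT list as a whole 4 of 23 rose and 3 fell, and in the TGF-beta and BMP list 2 of 24 rose and 3 fell. In the WNT list 2 rose without siOct4 replicate 2, and 1 fell without control replicate 1, control replicate 2 or siOct4 replicate 2, with detection required on all 6 arrays, without the detection filter or with only the 6 arrays. Of 13 measured nuclear receptors 1 rose and 0 fell, and with a replicate block 1 rose and 3 fell. The rise was lost without siOct4 replicate 1, siOct4 replicate 2 or control replicate 3, and 1 fell without siOct4 replicate 1 or control replicate 3. INPP4B, a phosphatase of the PI3K pathway, fell by 1.19.

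Direct contrasts showed how far the largest changes set siOct4 apart from the other knockdowns. Over all genes 3382 (32.5%) differed between siOct4 and siRb1 and 3570 (34.3%) between siOct4 and siCcnf+siNipp1. Of the 30 largest rises and falls, 29 differed from siRb1, 20 from siCcnf+siNipp1 and 19 from both. The exception against siRb1 was FAM107A, where siRb1 arrays averaged 11.75 (adjusted p = 0.272). FLG averaged 11.88 with siOct4, 8.07 with siRb1 and 9.53 with siCcnf+siNipp1, and TNF 11.44, 8.52 and 9.70, each different from both (adjusted p from 5.11e-07 to 0.000406). PI3 averaged 11.14 with siOct4 against 6.37 and 7.35. LMBRD2 and MRPL9 were lower with siOct4 than in both other knockdowns, by 2.38 and 1.83 against siRb1 and by 2.07 and 1.78 against siCcnf+siNipp1. Differences from siCcnf+siNipp1 did not pass for LCP1 (0.42), ACTA2 (-0.49), FGFBP1 (-0.03), CPA4 (0.03), HLA-B (0.74), HLA-F (0.60), CDH1 (-0.45), LPAR3 (-0.16), HMGN2 (-0.09) and TRMT5 (-0.06), and this does not show that the knockdowns act alike. These contrasts share the siOct4 arrays with the comparison that chose the 30 genes.

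Markers of other cell types were mostly undetected. Of 9 fibroblast genes with a probe, 8 were undetected on all 6 arrays, COL1A2, COL3A1, DCN and LUM among them, and none was detected on all arrays of a group. Of 9 leukocyte genes 7 were undetected on all 6 arrays, including PTPRC and CD3D. The detected ones were CD68, which rose by 1.13, and HLA-DRA, which did not pass (0.08). The part of CD68 in the summed leukocyte signal below is not given here. Of 8 endothelial genes 6 were undetected, including PECAM1 and KDR, and VWF fell by 1.01. Summed signals of the leukocyte probes were 7215.6 to 8385.3 in control and 9444.6 to 10835.1 with siOct4, those of the fibroblast probes 2547.7 to 2714.5 and 2635.1 to 2715.1, and those of the endothelial probes 3246 to 3356.3 and 2961.9 to 3237.3. The leukocyte-associated genes LCP1 and ITGB2 thus rose while PTPRC stayed undetected.

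For some genes the probe decided the reading. Among genes with 2 or more kept probes, 511 had every probe called in the same direction, 644 had some called, 1503 none and 10 had probes called in opposite directions. RAC1, a GTPase of the cytoskeleton, had one probe at 13.43, 13.46 and 13.31 in control and 12.97, 13.05 and 12.84 with siOct4 (-0.45, adjusted p = 0.00604). Its other probe, paired with a different transcript, read 7.42, 7.40 and 6.44 against 9.36, 9.87 and 9.33 (2.43, adjusted p = 7.67e-05). PNKD probes differed by 1.91 and -0.91, ABL1 probes by 0.55 and -1.04, POLR1D probes by 0.54 and -0.94, and of 3 TGM2 probes 1 rose (0.95), 1 fell (-0.83) and 1 did not pass (0.17). Whether the probes of a gene read different transcripts was not tested. Among the 3587 kept probes without a gene name, 961 (26.8%) were called, 512 higher and 449 lower.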

How the data were processed

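The authors deposited a table with the signal intensity of 47322 probes on each array and their detection p-values, from an Illumina HT-12 platform, with linear values that were not background-subtracted, per the file headers and the range of the values. They also deposited normalized intensity values, whose method the sources used here do not give, and these were tried as an alternative. Arrays were read in GenomeStudio, per the submitters' processing notes. The platform table pairs 30102 probes with 1 gene, 8 with several and 17212 with none. Of the identifiers, 30063 were found in the RefSeq gene table, which changed 0 symbols.

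Signals were corrected and quantile-normalized in R 4.3.3 with limma 3.58.1 (neqc, offset 16, background from the detection p-values), which gives log2 values. Probes were kept if 3 or more of the 6 arrays detected them at 0.01 (17304, of which 13717 with 1 gene). A gene was read by its kept probe of highest mean. All 12 arrays entered 1 limma model with 4 group means (8 residual and 3.96 prior degrees of freedom), with siOct4 minus control as a contrast and a two-sided test. Benjamini-Hochberg adjustment ran over all kept probes. On simulated data of 17304 probes the fit recovered 79% of probes changed 2-fold and 96% of those changed 4-fold, with 13 false calls. These shares describe the simulated probes and are not the sensitivity for a gene named here. How many simulated probes were left unchanged is not given here, so the 13 false calls are no error rate for the calls above.

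Replicate numbers come from the labels. Deviations from the group mean correlated at 0.215, 0.158 and 0.35 between control and siOct4 arrays of the same number. Between arrays of different numbers they correlated at -0.215 to -0.0294. Deviations cancel within a group, so positive values for the same number go with negative values elsewhere, and the contrast is partly forced. The numbers were taken as possible pairs, and a fit with a replicate block was run beside the main one. The main fit does not use the pairs. Counts, SE and adjusted p above are from the main fit unless another setting is named. Named genes were POU5F1, the 15 largest rises and falls, the 8 largest bounds each way, up to 4 called members of each list with its first 3 members, and genes with opposite probes, and other list members were named after their values were seen. Members, gene lists (1936 genes in 71 lists beside the left-out ones) and motifs were chosen with earlier results of these data known. Figures were drawn with matplotlib. The number of arrays limits the precision.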

Additional observations from a re-analysis of the deposited data

How the results depend on the processing

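The number of called probes, 5435, lay between 4018 and 5349 when each array was left out in turn and between 4498 and 7144 over other settings. Genes called higher ranged from 1322 to 1660 and genes called lower from 1262 to 1767 with an array left out. The replicate block gave 7144 probes, 2309 genes higher and 2215 lower. Among 424 named genes the block took the call from DIS3 (adjusted p = 0.0594), gave one to 16 others and changed no other call. The fall of POU5F1 ranged from -5.536 to -5.109 with an array left out and was -3.31 without background correction, -3.32 in the authors' normalized values and -2.50 with the mean of its probes. With detection required on all 6 arrays the gene was read by its other probe, at 0.2744 (adjusted p = 0.309). Of the largest changes, 28 differed from siRb1 and 17 to 21 from siCcnf+siNipp1 with an array left out.

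Of 337 named genes that were called, 269 kept their call in every setting that read them, 63 lost it in at least 1 and 5 changed sign in 1. With the mean of probes RAC1 was 0.9923, PNKD 0.5003 and ABL1 -0.2461, and without the detection filter PTGS1, read by another probe, was -0.5298. The fifth is POU5F1. Without background correction 72 of the 337 had a log2 difference over 1.5 times smaller, 0 larger, and the authors' normalized values gave the same numbers. Without background correction CHAC1 was 0.72, and the lowest IL32 difference over all settings was 2.65. CXCL8 ranged from 2.03 to 3.96. The median of all genes moved by less than 0.04 with the scaling, and rises made up 48.4 to 53.2% of calls. List counts stayed within 1.5 times of their value in 1932 cases and moved further in 340. For probes near background, the signal limits how large a difference can be read. The shift within pairs of the same number was computed after seeing the data and moved the median shift of no siOct4 array by more than the spread among the 3.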

Other observations

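Probes for HMGN2, a nucleosome-binding protein, and TRMT5, a tRNA methyltransferase, gave nearly the same reading. HMGN2 read 14.29, 14.30 and 14.26 in control and 12.49, 12.05 and 11.95 with siOct4, and TRMT5 read 14.05, 14.02 and 14.10 against 12.36, 11.83 and 11.76. Over all 12 arrays the HMGN2 value lay above the TRMT5 value by 0.103 to 0.325. A second TRMT5 probe was detected on 0 of the 6 arrays, while both other HMGN2 probes fell, by 1.20 and 1.89. Whether the TRMT5 probe reads its own transcript was not tested.

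Probes without a gene name included some of the largest changes. ILMN_1776181 read 9.32, 8.67 and 8.93 in control and 13.11, 13.72 and 13.41 with siOct4 (4.43), and ILMN_1720695 rose by 4.23. ILMN_2068498 read 10.52, 10.84 and 10.79 against 7.48, 7.16 and 6.86 (-3.55), and ILMN_2068499 fell by 3.34. The last pair averaged 11.34 and 11.97 with siRb1 and 11.49 and 12.16 with siCcnf+siNipp1.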
